A study of Homo sapiens with 4 samples.

Results

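The lncRNAs described here are 71 long noncoding RNAs (lncRNAs) whose names place them next to genes of the TGF-beta, Wnt and Notch signalling pathways, out of 46902 lncRNA genes measured. They were chosen by name and by level. The name had to begin with lnc- followed by 1 of 16 letter strings (TGFB, SMAD, SMURF, BMP, ACVR, INHB and GDF for TGF-beta; WNT, FZD, DKK, LRP and AXIN for Wnt; NOTCH, JAG, DLL and HES for Notch), and the isoform values summed per gene had to average at least 0.1 FPKM over the 4 libraries. FPKM counts fragments scaled by transcript length and by the number of mapped fragments, so levels of different lncRNAs can be set side by side. Of 358 lncRNAs with such a name, 71 (19.8%) reached this level, against 26.1% of all 43199 lncRNAs named in the same way for a neighbouring gene, and 287 did not. The level that chose them was the mean over both cell lines and not the difference between the lines.

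The RNA came from MDA-MB-231-P3 and from MDA-MB-231, with 2 libraries of each. MDA-MB-231 is a triple-negative breast cancer line of human origin. MDA-MB-231-P3 descends from it through 3 rounds of tail vein injection into mice, recovery of the cells from lung tumours and growth in culture. Both lines were grown in culture without a further treatment named in the labels, and the subline stands for 1 selected population. Whether separate cultures gave the 2 libraries of each line is not in the labels, so p-values rest on a spread between libraries that may be purely technical. All 9 coding markers of epithelial, mesenchymal, immune, endothelial and stromal cells that were looked up had 0 rows in this lncRNA table, so the cell type could not be checked against markers. The subline's libraries summed to 351135 and 372689 FPKM over all lncRNAs, against 460282 and 500086 FPKM for those of the parent. Read depth was unknown, because the files hold no read counts.

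In the TGF-beta superfamily, secreted ligands bind pairs of receptor kinases that phosphorylate SMAD proteins, which enter the nucleus and regulate transcription, while inhibitory SMADs hold the signal back. Wnt ligands bind Frizzled receptors and LRP co-receptors and stabilise beta-catenin, and Dickkopf (DKK) proteins block the co-receptor. Notch receptors are cleaved after contact with Delta or Jagged ligands on a neighbouring cell, and the released fragment switches on HES and related repressors. In breast cancer cells these pathways are known for their part in epithelial-mesenchymal transition and invasion. A name such as lnc-FZD1-2 says only that the lncRNA lies near FZD1. It says nothing of what the lncRNA does, and the coding genes themselves have no rows here, so their levels are not analysed here.

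The 71 members lie near 46 coding genes, and 29 belong to the TGF-beta letter strings, 37 to the Wnt strings and 5 to the Notch strings. No lncRNA near a SMURF or AXIN gene reached the minimum. The letters also catch genes outside the pathways: 8 members lie near LRP1, LRP1B, LRP11, LRP12, LRP2BP or TGFBI, and 63 lie near a gene counted in the pathways. Those genes encode ligands, receptors, co-receptors, transducers, members of inhibitor families, targets, a receptor-associated protein (TGFBRAP1) and a secreted modulator (BMPER). LRP1 is an endocytic receptor and TGFBI is a matrix protein that TGF-beta induces. All 46 neighbours had a position in GENCODE release 44 lifted to GRCh37 (hg19), and chromosomes 12 and 2 held the neighbours of 11 and 10 members. None of the 71 names matched a RefSeq symbol or synonym, so the members have no coordinates of their own here and no sequence of them is shown.

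Most members were present at low levels. Mean FPKM over the 4 libraries ran from 0.105 to 12.3 with a median of 0.355, against a median of 0.511 for all 12720 lncRNA genes of at least 0.1 FPKM. A mean of at least 1 FPKM was reached by 12 members, and 41 lay under 0.5 FPKM. In 48 members every library was above 0.001 FPKM, and 23 members were at or below that in at least 1 library. A value of 0 in such a table can be a failed estimate for an isoform, so these members are described as listed at 0, or near 0 where the value is under 0.001 FPKM. Just inside the minimum were lnc-FZD1-1 (mean 0.107 FPKM) and lnc-BMP5-1 (0.105 FPKM), and just outside it were lnc-DKK3-3 (0.0893 FPKM) and lnc-AXIN2-4 (0.0884 FPKM).

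**Figure D1:**
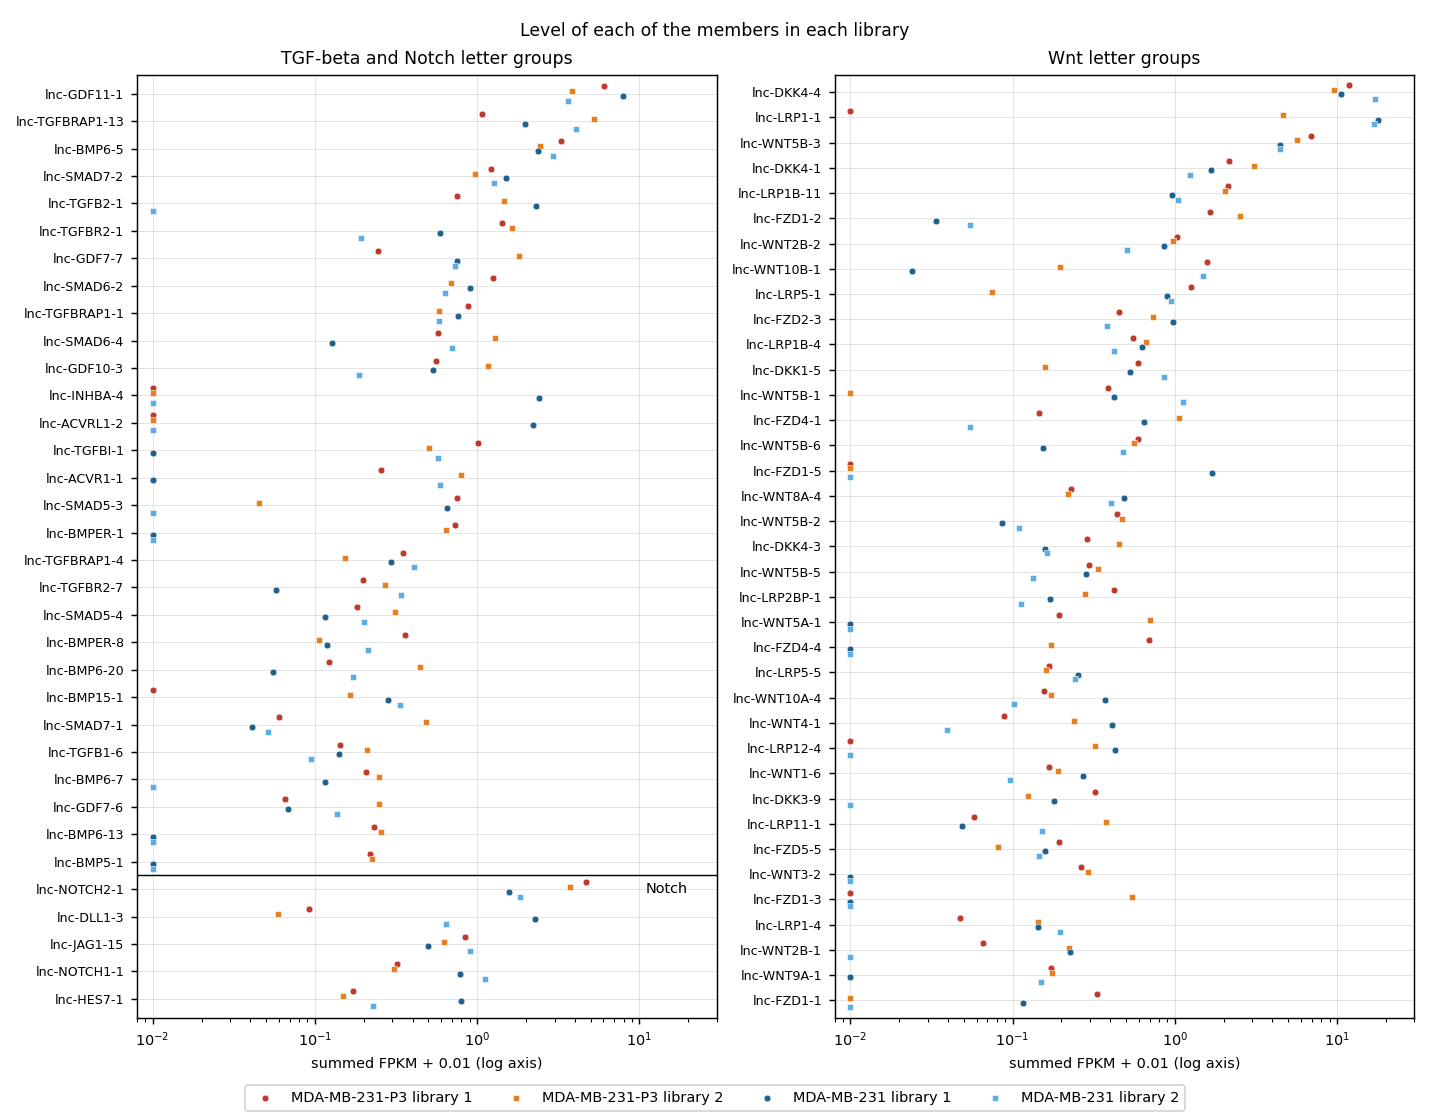
Summed FPKM of each of the 71 members in each of the 4 libraries, with 0.01 added so that values of 0 can be drawn on the log axis. Points at the left edge, at 0.01, are libraries in which the lncRNA was listed at or near 0. The highest values, above 16 FPKM, are those of lnc-LRP1-1 and lnc-DKK4-4 in MDA-MB-231.

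The question was whether levels of these lncRNAs changed along with selection in the lung. On log2(FPKM + 0.5), limma called 0 of 71 members higher and 0 lower at an adjusted p of 0.05 over all 12720 genes tested, where it also called 0% of genes in each direction. With a minimum of 0.5 FPKM it called 0.0621% of 6444 genes and 0 of the 30 members left. The smallest adjusted p among the members was 0.356. At an unadjusted p under 0.05, 9 members were higher in the subline, where 8.07% of all genes were, and 3 were lower, where 3.93% were. The count of 9 became 4 after centring or with the replicate number as a block, and 5 after quantile normalization. Both MDA-MB-231-P3 libraries lay above both MDA-MB-231 libraries for 23 members (32.4%, against 28.1% of all genes), and below them for 9 members (12.7%, against 17.2%). For the other 39 members the lines overlapped. Of the 9, lnc-FZD1-2, lnc-BMPER-1, lnc-WNT5B-2, lnc-WNT3-2, lnc-BMP6-13 and lnc-BMP5-1 had a parental mean under 0.1 FPKM. They reached that minimum through the subline alone, as did others of the 23, such as lnc-WNT5A-1 and lnc-FZD4-4. Among the lower ones, lnc-DLL1-3 and lnc-BMP15-1 reached it through the parent alone. How many of all genes did so through 1 line was not counted, so these counts are a description. In RNA of whole cultures, fewer cells with a lncRNA and less of it per cell cannot be told apart.

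The median log2 difference was 0.13 over the members and 0.10 over all genes tested, and 47 members (66.2%) were positive, against 57.3% of all genes. The other 24 members were negative, as were 42.7% of all genes. These shares depend on the scale on which the libraries are compared. With every library centred on its median, 49.3% of members and 47.1% of all genes were positive, with medians of -0.01 and -0.04. Quantile normalization gave 49.3% and 47.8% positive, with medians of -0.01 and -0.03. After either scaling 17 members (23.9%) had both subline libraries above both parental ones, against 19.9% (centring) and 20.3% (quantile) of all genes. Those below numbered 16 (22.5%) after centring and 17 (23.9%) after quantile normalization, against 26.6% and 25.2% of all genes, so about as many members lay above as below. The sign of the difference flipped for 12 members and was the same for 59.

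**Figure D2:**
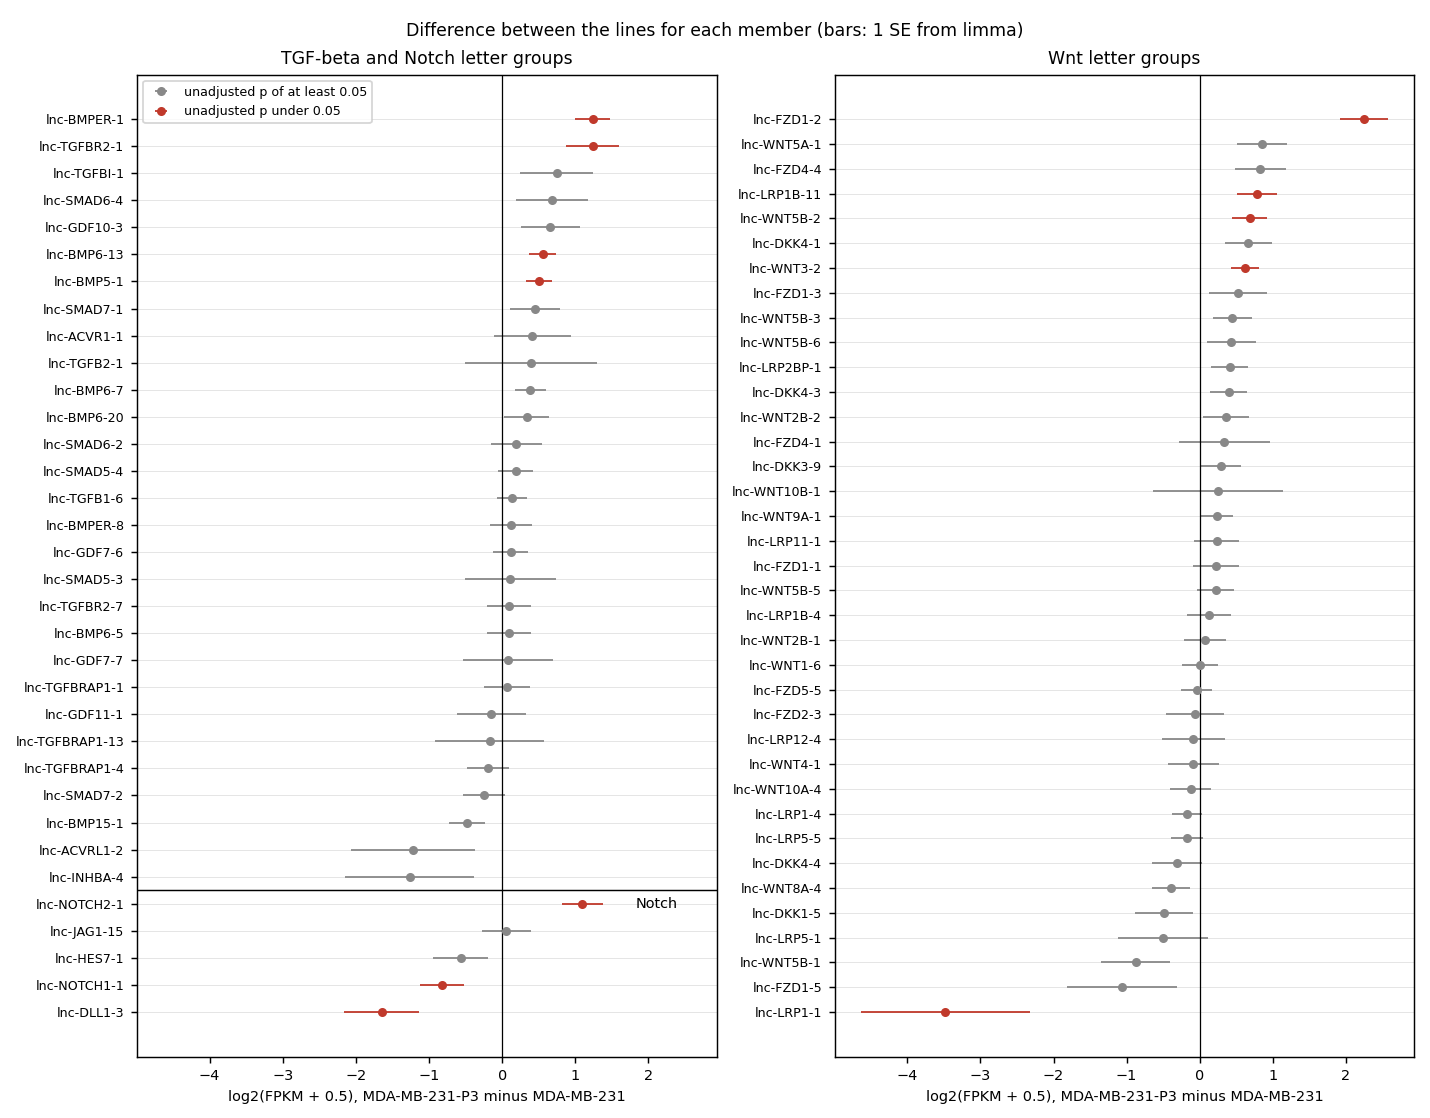
Difference in log2(FPKM + 0.5), MDA-MB-231-P3 minus MDA-MB-231, for each of the 71 members, with bars of 1 SE from limma. Red marks the 12 members with an unadjusted p under 0.05, from lnc-FZD1-2 at 2.25 to lnc-LRP1-1 at -3.48, and no member passed after adjustment over all genes.

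Among the lncRNAs near TGF-beta superfamily ligands, 13 in all, 10 (76.9%) had a positive difference, where 57.3% of all genes did. The other 3 of these 13 had a negative difference, and 0 passed the test. The most abundant was lnc-GDF11-1, near the gene of a circulating ligand of the activin group. It was listed at 6.02 and 3.84 FPKM in MDA-MB-231-P3, against 7.93 and 3.63 FPKM in MDA-MB-231. The lines overlapped, with the highest and the lowest value both in the parent (log2 difference -0.15, SE 0.47, limma adjusted p = 0.905). BMP6, a bone morphogenetic protein that also regulates iron balance, had 4 members nearby. The level of lnc-BMP6-5 was 3.27 and 2.44 FPKM in MDA-MB-231-P3 and 2.36 and 2.92 FPKM in MDA-MB-231, again overlapping (log2 difference 0.09, and below 0 after centring or quantile normalization). The much lower lnc-BMP6-13 had 0.222 and 0.245 FPKM in the subline and at 0 in both parental libraries (log2 difference 0.55, SE 0.18, limma adjusted p = 0.387). Near BMP5, lnc-BMP5-1 had the same pattern, with 0.208 and 0.213 FPKM in the subline and 0 in both parental libraries (log2 difference 0.51, SE 0.18, limma adjusted p = 0.397). The level of lnc-BMP6-7 was 0.197 and 0.239 FPKM in the subline, against 0.106 FPKM and 0 in the parent (limma adjusted p = 0.553). Levels of this size are close to the minimum of 0.1 FPKM, and with depth unknown it cannot be said how few fragments they rest on.

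Other ligand neighbours varied between the libraries of a line. Next to INHBA, which encodes an activin subunit, lnc-INHBA-4 was listed at 0 in both MDA-MB-231-P3 libraries, against 2.38 and 0 FPKM in MDA-MB-231. Without MDA-MB-231 library 1 it was at 0 throughout. Near TGFB2, the gene of a TGF-beta ligand, lnc-TGFB2-1 had 0.736 and 1.45 FPKM in the subline, against 2.29 FPKM and near 0 in the parent. The level of lnc-BMP15-1, near a ligand known from oocytes, was near 0 and 0.154 FPKM in MDA-MB-231-P3 and 0.271 and 0.327 FPKM in MDA-MB-231, lower in both subline libraries (log2 difference -0.48, SE 0.25, limma adjusted p = 0.525, and -0.29 without MDA-MB-231-P3 library 1). Near GDF10, lnc-GDF10-3 had 0.548 and 1.15 FPKM in the subline and 0.524 and 0.176 FPKM in the parent, without overlap, a 2.43-fold ratio of means (limma adjusted p = 0.573). After centring or quantile normalization its lines overlapped. Near GDF7, lnc-GDF7-7 overlapped, at 0.235 and 1.79 FPKM in the subline and 0.743 and 0.720 FPKM in the parent.

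BMPER, a secreted protein that binds bone morphogenetic proteins and can inhibit them, had the TGF-beta member of smallest p beside it. The lncRNA lnc-BMPER-1 had 0.721 and 0.636 FPKM in MDA-MB-231-P3, while both MDA-MB-231 libraries were near 0. Its log2 difference was 1.24 (SE 0.24), and it did not pass the test (limma adjusted p = 0.357). The second lncRNA there, lnc-BMPER-8, overlapped between the lines, at 0.350 and 0.0957 FPKM in the subline and 0.109 and 0.202 FPKM in the parent.

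Among 4 lncRNAs near receptor genes, 1 (25%) had both subline libraries above both parental ones, where 28.1% of all genes did. It was lnc-TGFBR2-1. TGFBR2 encodes the type II receptor that binds TGF-beta ligands and starts the signal. The level of lnc-TGFBR2-1 was 1.42 and 1.63 FPKM in MDA-MB-231-P3, against 0.582 and 0.181 FPKM in MDA-MB-231. Its mean was 1.52 ± 0.154 FPKM in the subline and 0.381 ± 0.283 FPKM in the parent (SD, n = 2 each, log2 difference 1.24, SE 0.36, limma adjusted p = 0.372). Both subline libraries were above both parental ones, and the log2 difference stayed between 0.90 and 1.57 when single libraries were left out. At the same gene, lnc-TGFBR2-7 had 0.187 and 0.260 FPKM in the subline and 0.0477 and 0.331 FPKM in the parent, which overlap. The lncRNA lnc-ACVRL1-2, near an endothelial type I receptor gene, was listed at 0 in both subline libraries and at 2.20 and 0 FPKM in the parent. Near ACVR1, a type I receptor gene for bone morphogenetic proteins, lnc-ACVR1-1 overlapped, at 0.245 and 0.783 FPKM in the subline and 0 and 0.583 FPKM in the parent.

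None of the 6 lncRNAs near SMAD genes passed the test, and for 4 of them the lines overlapped, as for 6953 of all 12720 genes tested. SMAD7 and SMAD6 encode inhibitory SMADs and SMAD5 a transducer of the bone morphogenetic protein branch. The most abundant, lnc-SMAD7-2, was listed at 1.20 and 0.956 FPKM in MDA-MB-231-P3 and 1.49 and 1.26 FPKM in MDA-MB-231. Both subline libraries were lower, with a difference of -0.25 in log2 (SE 0.29, limma adjusted p = 0.711), and of -0.14 without MDA-MB-231-P3 library 2. At SMAD6, lnc-SMAD6-2 had 1.24 and 0.677 FPKM in the subline and 0.896 and 0.623 FPKM in the parent, and lnc-SMAD6-4 had 0.567 and 1.27 FPKM against 0.117 and 0.692 FPKM in the parent. At SMAD7, lnc-SMAD7-1 was higher in both subline libraries, at 0.0496 and 0.477 FPKM, against 0.0310 and 0.0411 FPKM in the parent (log2 difference 0.45, SE 0.34, limma adjusted p = 0.573). Its parental mean of 0.0361 FPKM is under the minimum of 0.1 FPKM, which lnc-SMAD7-1 reached through MDA-MB-231-P3 library 2 alone. After centring or quantile normalization its lines overlapped. The remaining ones, lnc-SMAD5-3 and lnc-SMAD5-4, stayed under 0.75 FPKM in every library. Near TGFBRAP1, whose protein associates with TGF-beta receptors, lnc-TGFBRAP1-13 varied within each line, with 1.06 and 5.22 FPKM in the subline and 1.97 and 4.06 FPKM in the parent (limma adjusted p = 0.933).

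Beside TGFBI, the induced matrix protein gene, lnc-TGFBI-1 had 0.9999 and 0.493 FPKM in the subline and 0 and 0.560 FPKM in the parent, which overlap.

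Summed over the 29 TGF-beta members, the level was 21.9 and 26.0 FPKM in MDA-MB-231-P3 and 26.1 and 17.8 FPKM in MDA-MB-231, so the lines overlapped. Of the 29, 22 had a positive and 7 a negative difference, with a median of 0.13, and the median was -0.01 after centring or quantile normalization.

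**Figure D3:**
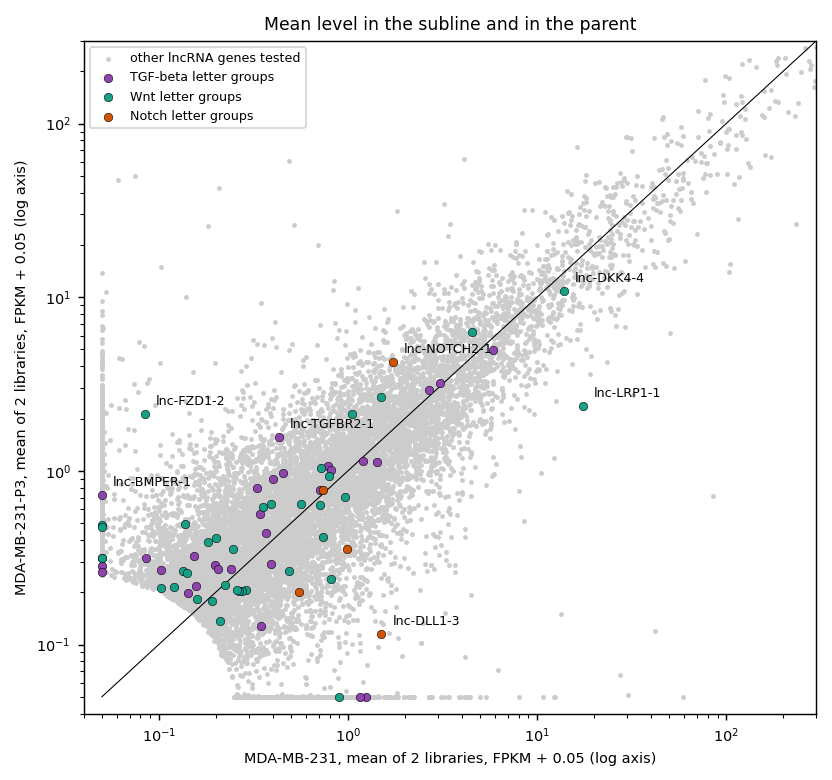
Mean FPKM of 2 libraries in MDA-MB-231-P3 (vertical) against MDA-MB-231 (horizontal), both with 0.05 added and on log axes, for the 71 members (coloured) and the other lncRNA genes tested (grey). The line marks equal levels. The most abundant other genes lie outside the axes. The members scatter with the other genes, with lnc-FZD1-2 and lnc-BMPER-1 far above the line and lnc-LRP1-1 and lnc-DLL1-3 far below it.

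Near Wnt ligand genes, 15 members were measured, of which 11 (73.3%) had a positive and 4 a negative difference, and 0 passed the test. Of all genes 57.3% were positive, and lnc-WNT1-6 and lnc-WNT2B-1 turned negative after centring or quantile normalization. For 8 of the 15 both MDA-MB-231-P3 libraries lay above both parental libraries, and for 2 they lay below, where 28.1% and 17.2% of all genes did. After centring and after quantile normalization 5 of the 8 stayed above, where 19.9% and 20.3% of all genes were above. Among the 5, lnc-WNT5B-2, lnc-WNT5A-1 and lnc-WNT3-2 had parental means under 0.1 FPKM and reached that minimum through the subline alone. So did lnc-WNT9A-1, which was 1 of the 8 but did not stay above. WNT5B, a ligand known mostly for signalling without beta-catenin, had 5 members nearby, more than any other gene. Its hg19 position is chromosome 12, 1639057 to 1756378, plus strand. The most abundant, lnc-WNT5B-3, had 6.90 and 5.68 FPKM in the subline and at 4.47 FPKM in both parental libraries, a 1.41-fold ratio of means (log2 difference 0.44, SE 0.27, limma adjusted p = 0.573). At the same gene, lnc-WNT5B-2 had 0.428 and 0.460 FPKM in the subline, against 0.0761 and 0.0997 FPKM in the parent, a 5.06-fold ratio of means (log2 difference 0.68, SE 0.24, limma adjusted p = 0.393). Its parental mean of 0.0879 FPKM is under the minimum of 0.1 FPKM, which lnc-WNT5B-2 reached through the subline alone.

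The other WNT5B members were not uniform. The level of lnc-WNT5B-6 was 0.583 and 0.548 FPKM in MDA-MB-231-P3 and 0.145 and 0.466 FPKM in MDA-MB-231, and that of lnc-WNT5B-5 was 0.285 and 0.326 FPKM in the subline and 0.272 and 0.123 FPKM in the parent. For these 2 the lines no longer separated after centring or quantile normalization, while lnc-WNT5B-3 and lnc-WNT5B-2 stayed above. In the opposite direction, lnc-WNT5B-1 was listed at 0.378 FPKM and 0 in the subline, against 0.409 and 1.12 FPKM in the parent (log2 difference -0.87, SE 0.47, limma adjusted p = 0.542). It was -0.47 without MDA-MB-231-P3 library 2 and -0.46 without MDA-MB-231 library 2. Lying near 1 gene, these lncRNAs are not independent of each other.

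Beside WNT5A and WNT3 were lncRNAs with a level in both subline libraries and at or near 0 in the parent. WNT5A encodes a ligand linked to cell movement, and lnc-WNT5A-1 was listed at 0.183 and 0.698 FPKM in MDA-MB-231-P3 and at 0 in both MDA-MB-231 libraries (log2 difference 0.86, limma adjusted p = 0.431, and 0.45 without MDA-MB-231-P3 library 2). WNT3 encodes a ligand of the beta-catenin branch, and lnc-WNT3-2 had 0.252 and 0.281 FPKM in the subline, with the parent's libraries near 0 (log2 difference 0.62, SE 0.19, limma adjusted p = 0.378). With lnc-BMPER-1, lnc-BMP6-13, lnc-BMP5-1 and lnc-FZD4-4 they make 6 members that were above 0.001 FPKM in both subline libraries and at or near 0 in both parental ones. The reverse pattern was found in 0 members. Among all genes tested, 3.43% had the first pattern and 0.81% the reverse. These 6 reached the 0.1 FPKM minimum through the subline alone, so the counts are a description. In all, 7 and 5 members were at or near 0 in libraries 1 and 2 of the subline, against 10 and 17 in libraries 1 and 2 of the parent. The part of this gap between libraries in the 6 members was not tested.

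Other Wnt ligand neighbours varied within a line. The level of lnc-WNT2B-2 was 1.016 and 0.970 FPKM in MDA-MB-231-P3 and 0.852 and 0.496 FPKM in MDA-MB-231, a 1.47-fold ratio of means (limma adjusted p = 0.614). At WNT10B the libraries of each line went opposite ways, with 1.58 and 0.187 FPKM of lnc-WNT10B-1 in the subline and 0.0140 and 1.47 FPKM in the parent. Near WNT8A, lnc-WNT8A-4 was lower in both subline libraries, at 0.219 and 0.209 FPKM, against 0.477 and 0.396 FPKM in the parent (log2 difference -0.39, SE 0.26, limma adjusted p = 0.573).

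FZD1 encodes a Frizzled receptor for Wnt ligands (hg19 chromosome 7, 90893748 to 90900641, plus strand). Beside it, lnc-FZD1-2 had the smallest p of all members. It was listed at 1.63 and 2.52 FPKM in MDA-MB-231-P3, against 0.0239 and 0.0445 FPKM in MDA-MB-231. The mean was 2.07 ± 0.628 FPKM in the subline and 0.0342 ± 0.0146 FPKM in the parent (SD, n = 2 each), a 60.6-fold ratio. That parental mean is under the minimum of 0.1 FPKM, so lnc-FZD1-2 reached the minimum through the subline alone. The ratio divides by parental values that low, and how few fragments they rest on is unknown. On the log2(FPKM + 0.5) scale, which understates changes of low values, the difference was 2.25 (SE 0.33, limma adjusted p = 0.356). It stayed between 1.996 and 2.498 when single libraries were left out.

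The 3 other lncRNAs near FZD1 were each listed in few libraries. In lnc-FZD1-5 only MDA-MB-231 library 1 had a value, at 1.69 FPKM, and both MDA-MB-231-P3 libraries and MDA-MB-231 library 2 were at 0. In lnc-FZD1-3 only MDA-MB-231-P3 library 2 had one, at 0.532 FPKM. FZD4, another Frizzled receptor gene, had lnc-FZD4-4 at 0.687 and 0.163 FPKM in the subline, the parent being near 0 throughout (limma adjusted p = 0.448). Of the 8 Frizzled neighbours, 5 (62.5%) had a positive and 3 a negative difference, where 57.3% of all genes were positive.

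**Figure D4:**
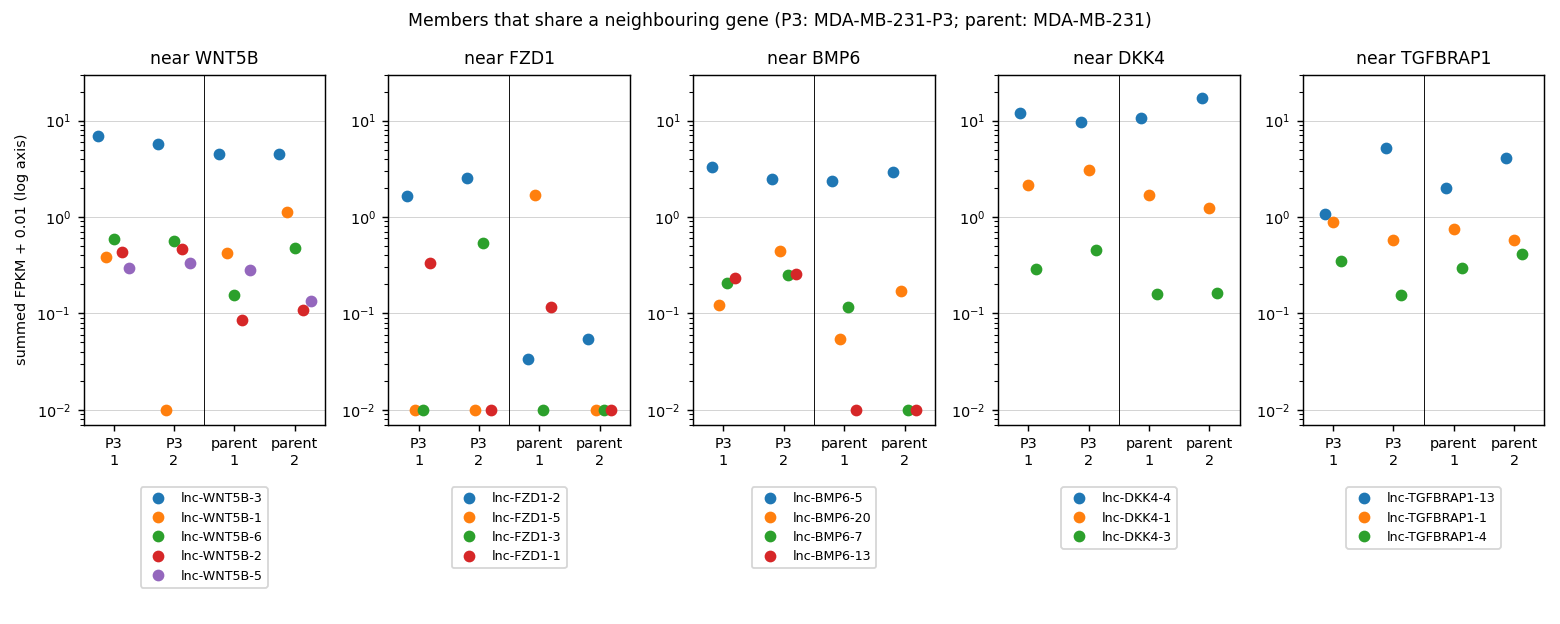
Summed FPKM plus 0.01, on a log axis, of the members near 5 genes that have 3 or more members each. Left of the vertical line are the 2 MDA-MB-231-P3 libraries and right of it the 2 MDA-MB-231 libraries. Near WNT5B, FZD1, DKK4 and TGFBRAP1, lncRNAs at the same gene have log2 differences of opposite sign between the lines. At TGFBRAP1 the only positive one, lnc-TGFBRAP1-1 (0.07), is negative after centring (-0.08) or quantile normalization (-0.07), as are the other lncRNAs there. Those near BMP6 are all positive before centring or quantile normalization.

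DKK4 and DKK1 encode Dickkopf inhibitors of the Wnt co-receptors. The most abundant of all members, lnc-DKK4-4, was listed at 11.9 and 9.63 FPKM in MDA-MB-231-P3, against 10.6 and 17.1 FPKM in MDA-MB-231. The lines overlapped, and 1 parental library was the highest (log2 difference -0.31, SE 0.35, limma adjusted p = 0.696). Without that library the log2 difference was 0.02. The other DKK4 neighbours were higher in both subline libraries, with lnc-DKK4-1 at 2.15 and 3.08 FPKM in the subline and 1.67 and 1.24 FPKM in the parent (1.80-fold, log2 difference 0.66, SE 0.32, limma adjusted p = 0.495). For lnc-DKK4-3 the values were 0.279 and 0.442 FPKM in the subline and 0.147 and 0.153 FPKM in the parent (log2 difference 0.40, limma adjusted p = 0.573). Near DKK1, lnc-DKK1-5 overlapped, at 0.582 and 0.149 FPKM in the subline and 0.523 and 0.851 FPKM in the parent.

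LRP5 is the gene of a Wnt co-receptor. Beside it, lnc-LRP5-1 had 1.25 and 0.0650 FPKM in MDA-MB-231-P3 and 0.884 and 0.939 FPKM in MDA-MB-231, so the 2 subline libraries lay on either side of the parent. The second lncRNA there, lnc-LRP5-5, was lower in both subline libraries, at 0.159 and 0.151 FPKM, against 0.245 and 0.234 FPKM in the parent (log2 difference -0.18, SE 0.22, limma adjusted p = 0.731). The other LRP letters mark genes that are not Wnt co-receptors. The most negative difference of any member was that of lnc-LRP1-1, near LRP1 (hg19 chromosome 12, 57522266 to 57607144, plus strand). It was listed near 0 and at 4.62 FPKM in MDA-MB-231-P3, against 17.8 and 16.9 FPKM in MDA-MB-231. Both subline libraries were below both parental ones, but the subline libraries differed widely from each other (log2 difference -3.48, SE 1.15, limma adjusted p = 0.387). Without MDA-MB-231-P3 library 1 the log2 difference was -1.80, and without MDA-MB-231-P3 library 2 it was -5.16. LRP1B, a large receptor gene often lost in tumours, had lnc-LRP1B-11 at 2.13 and 2.03 FPKM in the subline and 0.957 and 1.04 FPKM in the parent. Its mean was 2.08 ± 0.0738 FPKM in the subline and 0.998 ± 0.0582 FPKM in the parent (SD, n = 2 each), a 2.08-fold ratio (log2 difference 0.78, SE 0.27, limma adjusted p = 0.392). The 4 libraries of lnc-LRP1B-4, at the same gene, overlapped at 0.540 and 0.657 FPKM in the subline and 0.616 and 0.411 FPKM in the parent.

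The 37 Wnt members together summed to 35.6 and 37.4 FPKM in MDA-MB-231-P3 and to 45.9 and 48.8 FPKM in MDA-MB-231. Within these sums, lnc-LRP1-1 alone was near 0 and at 4.62 FPKM in the subline, against 17.8 and 16.9 FPKM in the parent. Over the 30 Wnt members near ligands, receptors, LRP5 and Dickkopf genes alone, the sums were 32.4 and 29.0 FPKM in the subline and 25.7 and 30.1 FPKM in the parent, which overlap. Of the 37, 23 had a positive and 14 a negative difference, with a median of 0.22, and the median was 0.08 after centring and 0.07 after quantile normalization.

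The 5 Notch members went in both directions. NOTCH2 and NOTCH1 encode Notch receptors. The level of lnc-NOTCH2-1 was 4.65 and 3.74 FPKM in MDA-MB-231-P3, against 1.56 and 1.81 FPKM in MDA-MB-231. The mean was 4.19 ± 0.643 FPKM in the subline and 1.69 ± 0.178 FPKM in the parent (SD, n = 2 each), a 2.48-fold ratio (log2 difference 1.10, SE 0.28, limma adjusted p = 0.358). In contrast, lnc-NOTCH1-1 was lower in both subline libraries, at 0.312 and 0.298 FPKM, against 0.776 and 1.10 FPKM in the parent (log2 difference -0.83, SE 0.30, limma adjusted p = 0.408). Neither direction flipped under any setting tried, and neither passed the test.

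Near the ligand gene DLL1, lnc-DLL1-3 was listed at 0.0821 and 0.0492 FPKM in MDA-MB-231-P3, against 2.28 and 0.630 FPKM in MDA-MB-231. Both subline libraries were below both parental ones, but the parental libraries differed from each other. The subline mean of 0.0656 FPKM is under the minimum of 0.1 FPKM, which lnc-DLL1-3 reached through the parent alone. The log2 difference was -1.65 (SE 0.52, limma adjusted p = 0.379), and without MDA-MB-231 library 1 it was -0.9985. JAG1 encodes a Jagged ligand, and lnc-JAG1-15 overlapped between the lines, at 0.834 and 0.617 FPKM in the subline and 0.485 and 0.900 FPKM in the parent. HES7 encodes a repressor that Notch switches on during segmentation of the embryo, and lnc-HES7-1 had 0.161 and 0.138 FPKM in the subline and 0.789 and 0.218 FPKM in the parent (log2 difference -0.57, SE 0.38, limma adjusted p = 0.573). Without MDA-MB-231 library 1 the log2 difference was -0.14.

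Of the 71 members, 33 had 1 isoform in the table and 38 had several, 230 isoform rows in all. In 20 of the 38 the same isoform was the highest in every library with a value above 0.001 FPKM, and in 18 the highest isoform changed between libraries. When isoforms rather than summed genes were tested, limma called 0 of 98 member isoforms of at least 0.1 FPKM at an adjusted p of 0.05, as it called 0% of all 19682 isoforms. At an unadjusted p under 0.05, 9 member isoforms were higher and 1 was lower, where 6.35% and 3.64% of all isoforms were.

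The highest isoform was the same in all libraries for lnc-DKK4-4, where isoform 1 held 66.0% and 82.3% of the sum in MDA-MB-231-P3 and 69.9% and 60.2% in MDA-MB-231. In lnc-GDF11-1, isoform 2 held 42.3% and 47.1% in the subline and 41.7% and 47.3% in the parent. The make-up of lnc-BMP6-5 differed between the lines and also between the libraries of 1 line, although its sum overlapped. Isoform 3 of it held 20.3% and 23.4% in the subline, at 0.664 and 0.571 FPKM, and was listed under 0.001 FPKM in both parental libraries. In the same lncRNA, isoform 12 held 31.0% and 42.1% in the subline and 78.7% and 54.0% in the parent. Such shares carry no test here, and how reads shared by isoforms were divided is not given in the sources used here.

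Of the members with an unadjusted p under 0.05, lnc-LRP1-1, lnc-BMPER-1, lnc-NOTCH2-1, lnc-WNT5B-2, lnc-WNT3-2, lnc-BMP6-13 and lnc-BMP5-1 had 1 isoform each. In lnc-LRP1B-11 and lnc-NOTCH1-1 the same isoform led in every library. The other ones, lnc-FZD1-2, lnc-DLL1-3 and lnc-TGFBR2-1, changed their leading isoform between libraries. In lnc-FZD1-2, isoform 12 was listed at 1.10 and 0.800 FPKM in MDA-MB-231-P3 and at 0 in both MDA-MB-231 libraries, while isoform 6 was at 1.07 FPKM in MDA-MB-231-P3 library 2 alone. The high parental value of lnc-DLL1-3 was isoform 1, at 1.92 FPKM in MDA-MB-231 library 1 and under 0.001 FPKM in the other 3 libraries. In lnc-TGFBR2-1, isoform 1 was at 0.981 and 0.740 FPKM in the subline and at 0.355 and 0.181 FPKM in the parent, above in both subline libraries.

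**Figure D5:**
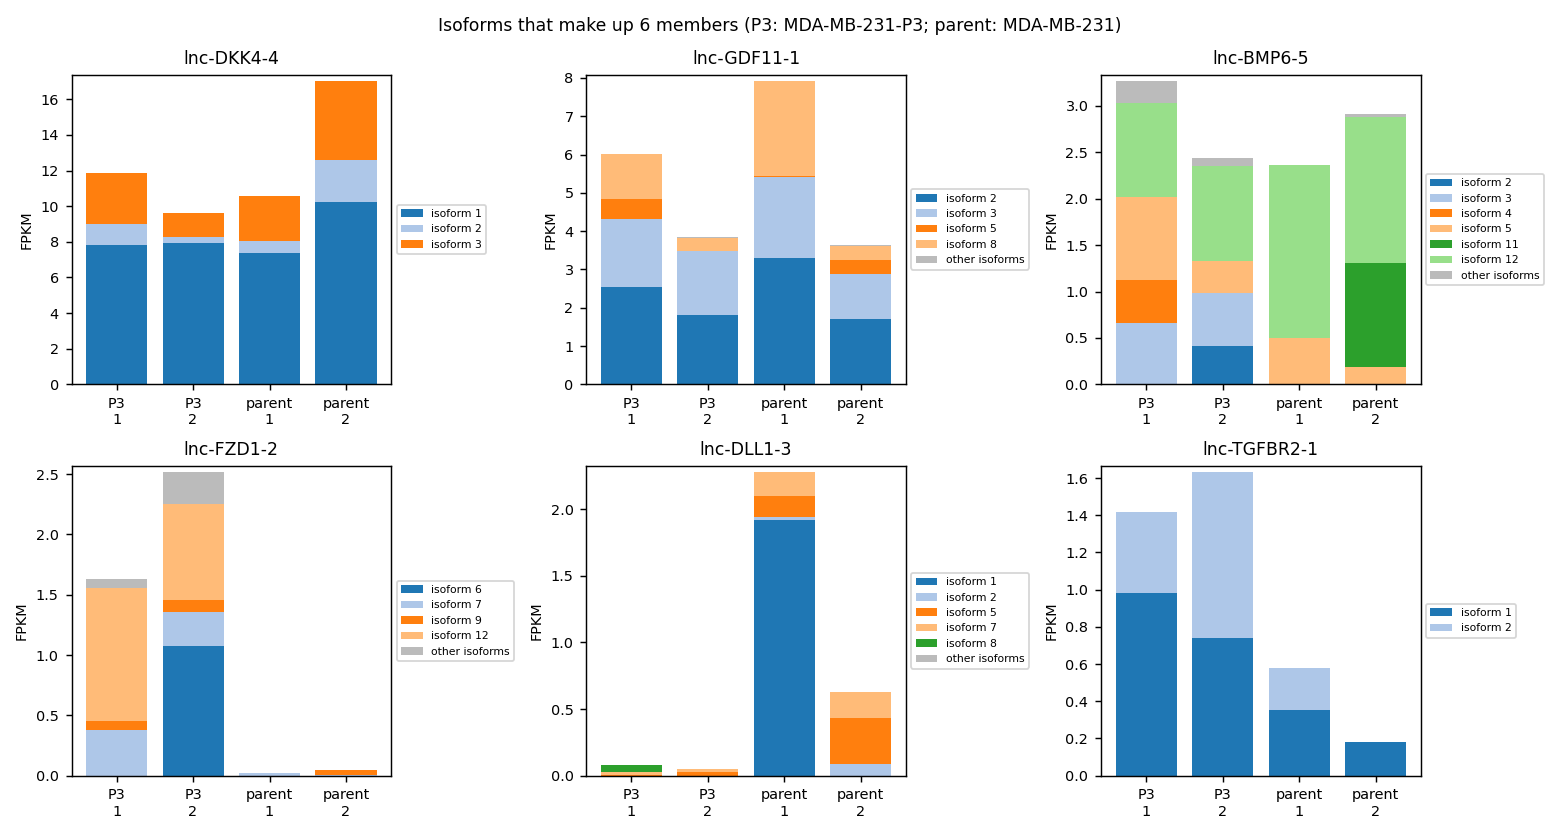
FPKM of the isoforms that make up 6 members in each library, stacked, with isoforms under 10% in every library shown together in grey. The sum of lnc-FZD1-2 is high in both MDA-MB-231-P3 libraries but led by different isoforms (12 and 6), and that of lnc-DLL1-3 is led by isoform 1 in MDA-MB-231 library 1 alone.

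LncRNAs near other genes of the same pathways were taken from a list of further ligands, regulators and targets. Of 259 such lncRNAs, 65 reached 0.1 FPKM. Limma called 0 of them higher and 0 lower, and at an unadjusted p under 0.05, 1 was higher and 2 were lower, where 8.07% and 3.93% of all genes were. Their median log2 difference was 0.12, against 0.13 for the members and 0.10 for all genes. Both subline libraries lay above both parental ones for 14 (21.5%) and below for 10 (15.4%), against 28.1% and 17.2% of all genes, and 41 overlapped. LTBP3 encodes a protein that stores latent TGF-beta in the matrix, and lnc-LTBP3-2 was listed at 7.33 and 5.67 FPKM in MDA-MB-231-P3, against 2.43 and 2.16 FPKM in MDA-MB-231 (log2 difference 1.32, SE 0.28, limma adjusted p = 0.357). At the same gene, lnc-LTBP3-5 was lower in both subline libraries, at 0.584 and 0.981 FPKM, against 1.31 and 1.37 FPKM in the parent (limma adjusted p = 0.568). The level of lnc-LTBP3-9 overlapped, at 5.64 and 6.43 FPKM in the subline and 8.30 and 4.68 FPKM in the parent. NUMB encodes an inhibitor of Notch, and lnc-NUMB-1 had 7.09 and 6.80 FPKM in the subline and 2.83 and 4.95 FPKM in the parent (log2 difference 0.81, limma adjusted p = 0.452). SPEN encodes a corepressor in the Notch pathway, and lnc-SPEN-4 had 0.899 FPKM in both subline libraries and 1.98 and 2.18 FPKM in the parent (log2 difference -0.88, limma adjusted p = 0.378). TCF7 encodes a transcription factor of the Wnt pathway, and lnc-TCF7-5 had 1.43 and 1.40 FPKM in the subline and 3.07 and 1.91 FPKM in the parent (log2 difference -0.61, limma adjusted p = 0.537). Near WIF1, a secreted Wnt inhibitor, lnc-WIF1-4 had 0.0477 and 0.119 FPKM in the subline and 0.454 and 0.431 FPKM in the parent (log2 difference -0.69, limma adjusted p = 0.395). At the same gene the more abundant lnc-WIF1-6 went the other way, with overlap. It had 4.33 and 6.72 FPKM in the subline and 1.98 and 4.90 FPKM in the parent (log2 difference 0.69, limma adjusted p = 0.573). Of the 28 lncRNAs near these other Wnt genes, 17 (60.7%) had a positive and 11 a negative difference, where 57.3% of all genes were positive.

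With names that begin with the same letter strings, 13 lncRNAs carry a symbol instead of an lnc- name, and 4 of them reached 0.1 FPKM. Of these 4, TGFB2-AS1 and TGFB2-OT1 lie at a gene that has a member nearby. LRP4-AS1 and ACVR2B-AS1 lie at genes that have none. TGFB2-AS1 is antisense to TGFB2 (hg19 chromosome 1, 218517532 to 218519378, minus strand), lying across the start of TGFB2. It was listed at 2.75 and 2.68 FPKM in MDA-MB-231-P3, against 5.74 and 7.43 FPKM in MDA-MB-231. The mean was 2.71 ± 0.0499 FPKM in the subline and 6.58 ± 1.19 FPKM in the parent (SD, n = 2 each). On the log2 scale it was lower by -1.13 (SE 0.28), which did not pass the test (limma adjusted p = 0.357). TGFB2-OT1, on the plus strand within the end of TGFB2, overlapped between the lines at 20.04 and 22.5 FPKM in the subline and 16.3 and 22.04 FPKM in the parent. Reads of TGFB2 itself cannot be told apart from those of TGFB2-OT1, and whether strand was used in counting is not given, so TGFB2-AS1 is uncertain in the same way. LRP4-AS1 was lower in both subline libraries, at 0.305 and 0.277 FPKM, against 0.490 and 0.691 FPKM in the parent (log2 difference -0.46, limma adjusted p = 0.573). ACVR2B-AS1, beside an activin receptor gene, had 0.433 and 0.401 FPKM in the subline and 0.275 and 0.338 FPKM in the parent (log2 difference 0.19, SE 0.27, limma adjusted p = 0.768). Whether ACVR2B-AS1 stays higher after centring or quantile normalization was not tested.

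The start regions of TGFB2-AS1, which was lower in both subline libraries, and of ACVR2B-AS1, which was higher in both, are shown. Of the 4 symbol-named lncRNAs of at least 0.1 FPKM, these had a RefSeq sequence and a difference without overlap before scaling. Both were picked after their values were seen. Each covers 250 bases before to 50 bases after the start, 5′ to 3′ on the minus strand, from RefSeq (GRCh38.p14), at chr1:218345629-218345928 and chr3:38454771-38455070. Capitals mark matches on either strand to CAGAC (a SMAD half-site), CTTTG (the core of TCF/LEF sites) and TGGGAA (the core of RBPJ sites).
TGFB2-AS1: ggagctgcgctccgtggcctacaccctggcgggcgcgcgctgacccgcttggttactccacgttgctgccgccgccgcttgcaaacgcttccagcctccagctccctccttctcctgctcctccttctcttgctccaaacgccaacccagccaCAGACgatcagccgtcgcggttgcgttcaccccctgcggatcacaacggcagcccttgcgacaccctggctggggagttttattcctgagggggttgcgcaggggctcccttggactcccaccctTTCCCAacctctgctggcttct
ACVR2B-AS1: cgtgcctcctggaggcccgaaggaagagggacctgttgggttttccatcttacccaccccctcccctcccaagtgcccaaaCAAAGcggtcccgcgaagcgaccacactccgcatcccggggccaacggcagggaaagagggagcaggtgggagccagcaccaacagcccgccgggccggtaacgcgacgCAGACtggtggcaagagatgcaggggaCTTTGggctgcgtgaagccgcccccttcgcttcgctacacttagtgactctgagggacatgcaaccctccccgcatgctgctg
The TGFB2-AS1 window held 1 CAGAC, 0 CTTTG and 1 TGGGAA, and the ACVR2B-AS1 window held 1 CAGAC, 2 CTTTG and 0 TGGGAA, with 0 overlaps between motifs. Of 35116 RefSeq start regions of the same length, 45.3% held CAGAC, 47.5% held CTTTG and 24% held TGGGAA.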

How the data were processed

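RNA of MDA-MB-231-P3 and MDA-MB-231 cells (2 libraries each) was sequenced on strand-marked paired-end libraries of mRNA fractions (150-bp reads), as the protocols state. The authors aligned reads to hg19 with HISAT2 and deposited FPKM per lncRNA isoform, per the labels' protocols, and the submitters' processing notes also name StringTie. Not given in the sources used here are tool versions, the lncRNA annotation, use of strand in counting and the division of reads among isoforms. The 4 per-sample files equalled the series table. Depth was unknown and no counting interval was computed.

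Isoform FPKM were summed per gene. Genes with a mean of at least 0.1 FPKM, the minimum of the member rule, entered a two-sided limma fit (version 3.58.1, R 4.3.3) of log2(FPKM + 0.5), with intensity-dependent prior variance, no replicate block and differences taken as subline minus parent, and p-values were adjusted by Benjamini-Hochberg over all 12720 genes. The script was checked on simulated data. The members, lists and tests were chosen with earlier results of these data known. Members named in full were the 10 most abundant, up to 10 per direction of smallest p and the most abundant of each letter string. Members named beyond these were chosen after their values were seen. For the 65 lncRNAs near other pathway genes, only some of the 19 that the rule named are described. Alternatives were pseudocounts of 0.1 and 1, a minimum of 0.5 FPKM or none, quantile normalization, centring, no trend, the replicate number as a block, isoform rows, a log2 difference of at least 1, and leaving out each library. Positions came from GENCODE release 44 on GRCh37. Plots were drawn with matplotlib 3.10.9 in Python 3.11.15.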

Additional observations from a re-analysis of the deposited data

How the results depend on the processing

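The count of 0 members called was the same in every alternative, with a smallest adjusted p of 0.0692 (without MDA-MB-231-P3 replicate 2) to 0.475 (replicate block). Over all genes, a minimum of 0.5 FPKM gave 2 called higher and 2 lower (0.0621% of 6444), none of them a member. Members higher at an unadjusted p under 0.05 numbered 4 after centring, 5 after quantile normalization and 4 with the replicate block or a minimum of 0.5 FPKM, against 9. Those lower numbered 1 without the filter or MDA-MB-231 replicate 1 and 5 without MDA-MB-231 replicate 2, against 3. The members below in both subline libraries numbered 16 after centring and 17 after quantile normalization, or 22.5% and 23.9%, against 26.6% and 25.2% of all genes, and against 9 members without scaling. Of those added, lnc-INHBA-4, lnc-ACVRL1-2 and lnc-FZD1-5 came in because scaling moves libraries listed at 0 apart. The repeats at an unadjusted p and of counts without overlap were chosen after the data were examined. The replicate numbers share only a number: deviations of same-numbered libraries correlated at 0.067 over 12720 genes, and with the replicate block 0 members were called and 4 were higher and 2 lower at an unadjusted p under 0.05.

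Medians moved with a pseudocount of 0.1 to 0.35 for all members, 0.35 for TGF-beta, 0.49 for Wnt and -1.09 for Notch. With quantile normalization they were -0.0091, -0.0091 and 0.070 for all, TGF-beta and Wnt, and with centring -0.013, -0.013 and 0.076. Without single libraries they were 0.066 to 0.23 for all, 0.066 to 0.32 for TGF-beta, 0.061 to 0.31 for Wnt and -0.66 to -0.20 for Notch. Of 28 named members 20 kept 1 direction, and 3 (lnc-INHBA-4, lnc-ACVRL1-2 and lnc-FZD1-5) were at a difference of 0 without MDA-MB-231 replicate 1. The others were lnc-BMP6-5 (-0.0091 with quantile normalization, -0.054 with centring, -0.087 to 0.27 without single libraries), lnc-JAG1-15 (-0.069, -0.090, -0.20 to 0.31) and, without single libraries, lnc-DKK4-4 (-0.65 to 0.018), lnc-GDF11-1 (-0.66 to 0.37) and lnc-TGFBRAP1-13 (-1.11 to 0.77). Summed levels with a minimum of 0.5 FPKM were 19.8 FPKM for TGF-beta in MDA-MB-231-P3, and 30.2 and 42.3 FPKM for Wnt in MDA-MB-231-P3 and MDA-MB-231. With neighbours in the pathways only they were 30.7 and 27.9 FPKM for Wnt and 59.3 and 54.8 FPKM for all 63, and without the 2 most abundant members 52.8 and 43.4 FPKM. The causes were not tested. Leaving out 1 library leaves its line with 1, whose spread is then taken to equal that of the other line.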
